A study of Mus musculus with 8 samples.

Results

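Cyclin-dependent kinase inhibitors and G1 cyclins set the pace at which a cell enters S phase. Described here are 10 genes of this system: the INK4 inhibitor genes Cdkn2a, Cdkn2b, Cdkn2c and Cdkn2d, the CIP/KIP inhibitor genes Cdkn1b and Cdkn1c, the kinase gene Cdk4, and the D-type cyclin genes Ccnd1, Ccnd2 and Ccnd3. A probe set was taken as a member when the array's annotation gave it exactly 1 of these 10 symbols, and each gene was represented by its member with the highest mean log2 intensity. All 10 genes were found, with 23 of the 45101 probe sets on the array, and they are 10 of the 18193 genes tested. No member was removed for a low value.

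Cyclin D proteins bind CDK4 or CDK6, and the active pair phosphorylates the retinoblastoma protein, which frees E2F factors to switch on genes of DNA replication. INK4 proteins bind CDK4 and CDK6 and keep cyclin D out, whereas CIP/KIP proteins chiefly restrain the cyclin E and CDK2 pair. In blood formation, INK4 and CIP/KIP genes are known for holding stem cells and maturing cells out of cycle, and leukemias often lose or silence them.

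The samples were leukemic cells of the mouse that carry MLL-AF9, grown in liquid culture with serum, SCF, IL-3 and IL-6. MLL-AF9 fuses part of a histone methyltransferase with part of a subunit of transcription elongation complexes. Total RNA was measured on 8 Affymetrix arrays in 4 groups of 2: shLUC cells after 6 days in 3 µM EPZ4777, shLUC cells in DMSO, shSirt1 cells after 21 days in EPZ4777, and shSirt1 cells in DMSO. EPZ4777 inhibits DOT1L, the histone methyltransferase that MLL fusions recruit; shLUC is a control hairpin against luciferase, and shSirt1 targets the deacetylase gene Sirt1. Every title also carried a code that joins 1 EPZ4777 array to 1 DMSO array: shLUC cells had the codes A4 and D11, and shSirt1 cells A1 and A5. No source used here explains the codes. No time is given for the DMSO arrays. Nothing says that both arrays of a group had cultures of their own, so p-values reflect only how far these samples spread, which may be technical. The hairpin and the time in EPZ4777 cannot be told apart.

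The values are deposited RMA intensities, and log2 intensity had a median between 5.21 and 5.27 and a lower quartile between 3.75 and 3.84 on the 8 arrays. Sirt1 itself had a log2 intensity of 8.85 and 8.70 on the EPZ4777 and DMSO arrays of A1 and of 9.73 and 9.54 on those of A5, against 9.44 to 9.83 on the shLUC arrays. Because Sirt1 was not lower on A5, these arrays are called cells labelled shSirt1. The DMSO array of A1 also stood apart for some stromal genes. Col3a1, a fibrillar collagen, was at 6.92 and at most 3.13 on every other array. Dcn, a matrix proteoglycan, was at 7.27 and at most 4.79 elsewhere. Of the other stromal markers read, Col1a2, Lum and Thy1 were also highest on that array, whereas Col1a1, Pdgfra, Pdgfrb and Sparc were not. Fn1 was at 6.99 there, its lowest value on the 8 arrays. All tests used limma over 18193 genes with Benjamini-Hochberg adjustment, and a gene passed at an adjusted p under 0.05. A second fit with the code as a block is called the blocked fit. Brackets such as -2.87 ± 0.29 give a log2 difference, EPZ4777 minus DMSO unless stated, with its standard error.

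With EPZ4777, Cdkn2c fell in both hairpin arms, and in the fit without a block it was the only one of the 10 genes to pass in either arm. Its level dropped to 13.7% of the DMSO mean in shLUC cells after 6 days and to 16.9% in cells labelled shSirt1 after 21 days. Averaged over both arms, Cdkn2d and Ccnd3 rose and Cdk4 fell, by less than 1 log2 unit each. Cdkn2b and Ccnd1 did not pass, with differences between -0.04 and 0.15 in the arms. In shLUC cells 1 of 10 members passed, where 3.98% of all genes did, and in cells labelled shSirt1 1 of 10 passed, where 0.396% of all genes did. For the mean of both arms 4 of 10 passed, against 10.9% of all genes. The 10 genes and the gene lists below were chosen with earlier results of these data known. Setting their counts against all genes is therefore no test.

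**Figure D1:**
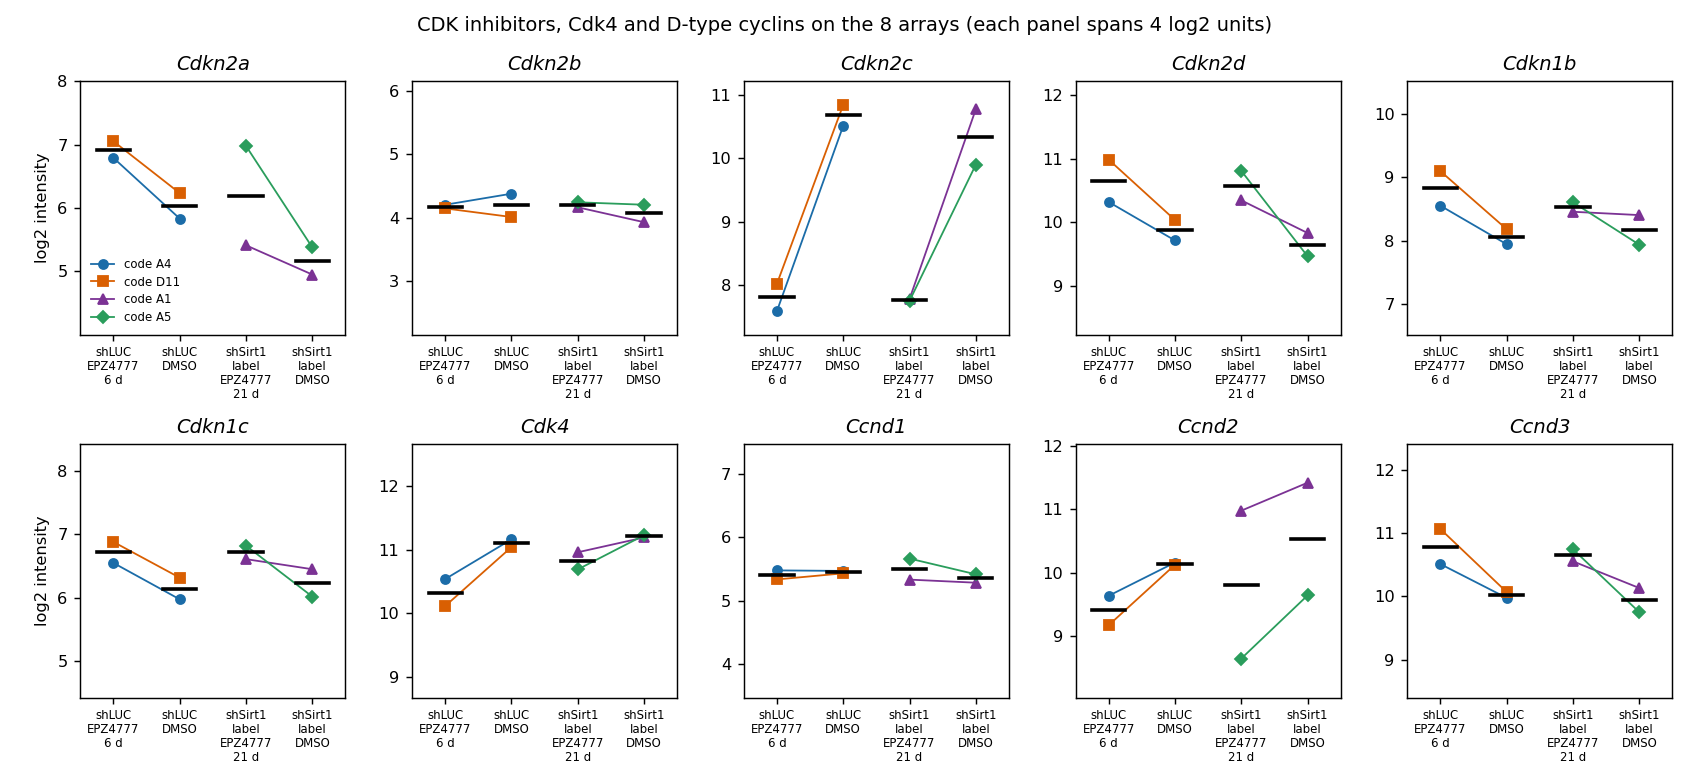
Log2 intensity of the 10 genes on each of the 8 arrays, with EPZ4777 left of DMSO for shLUC cells and for cells labelled shSirt1, a line joining the arrays of a code, and a black bar at each group mean. Cdkn2c lies between 7.59 and 8.02 on the EPZ4777 arrays and between 9.90 and 10.84 on the DMSO arrays, while Cdkn2b and Ccnd1 stay within narrow ranges.

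Among the INK4 genes, Cdkn2c encodes p18, an inhibitor of CDK4 and CDK6 that limits the cycling of blood stem and progenitor cells in mice. In shLUC cells its log2 intensity was 7.59 (A4) and 8.02 (D11) in EPZ4777, against 10.51 and 10.84 in DMSO. The cells labelled shSirt1 had 7.78 (A1) and 7.75 (A5) in EPZ4777, against 10.77 and 9.90 in DMSO. All 4 EPZ4777 arrays lay below all 4 DMSO arrays, with a gap wider than the spread inside any group, and the lowest DMSO value was that of A5. The difference was -2.87 ± 0.29 in shLUC cells (n = 2 arrays per group, limma adjusted p = 0.0244), a 7.31-fold lower level. It was -2.57 ± 0.29 in cells labelled shSirt1 (limma adjusted p = 0.0399), a 5.93-fold lower level. The difference held in every code, at -2.92 in A4, -2.82 in D11, -2.99 in A1 and -2.15 in A5. In bulk RNA, fewer cells that express a gene and less of its RNA per cell cannot be told apart.

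The calls for Cdkn2c depended on some of the arrays. In shLUC cells the difference stayed between -3.08 and -2.65 when any 1 array was left out, but it no longer passed without the A4 or the D11 DMSO array (limma adjusted p = 0.206 and 0.194) or the D11 EPZ4777 array (0.0991), fits in which 0, 0 and 2 of all genes passed. It still passed there without any 1 of the other 5 arrays. In cells labelled shSirt1 it stayed between -3.01 and -2.13 and no longer passed without either shLUC DMSO array (0.118 for each), the A1 DMSO array (0.0819), or the A1 or A5 EPZ4777 array (0.0630 and 0.159), while it passed without any 1 of the other 3. Fitted on the 4 arrays of that arm alone, it was not past the threshold either (limma adjusted p = 0.150), and 0 of all genes were.

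The bases upstream of the start of Cdkn2c are shown because this gene carries the clearest change of the group, with those of Cdkn2d, its INK4 relative that differed the other way. RefSeq, on build GRCm38.p6, listed such windows for 7 of the 10 genes, with 10 starts in all, and each window held the 250 bases before a start, printed 5′ to 3′ on the strand of the gene. Capitals mark the GC box GGGCGG or its reverse complement CCGCCC, the letters that factors of the SP family bind. The first listed start of Cdkn2c lies on the minus strand, with its window at chr4:109666757-109667006, and the start of Cdkn2d also on the minus strand, with its window at chr9:21291210-21291459.
Cdkn2c: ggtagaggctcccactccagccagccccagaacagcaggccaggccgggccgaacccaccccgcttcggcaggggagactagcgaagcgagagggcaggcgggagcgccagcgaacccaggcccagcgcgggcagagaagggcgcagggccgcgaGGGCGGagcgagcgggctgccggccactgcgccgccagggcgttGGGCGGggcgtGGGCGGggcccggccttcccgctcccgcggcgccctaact
Cdkn2d: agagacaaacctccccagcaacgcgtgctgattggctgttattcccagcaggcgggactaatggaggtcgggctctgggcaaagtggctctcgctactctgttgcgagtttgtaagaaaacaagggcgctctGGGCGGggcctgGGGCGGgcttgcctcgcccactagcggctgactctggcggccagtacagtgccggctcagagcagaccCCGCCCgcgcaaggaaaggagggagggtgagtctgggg
Each of these windows held 3 GC boxes on either strand, and 32.7% of 32851 mouse windows of the same length held at least 1 and 8.47% held 3 or more. G and C made up 77.2% of the Cdkn2c window and 63.6% of the Cdkn2d window, against 42.8% at a second listed start of Cdkn2c, which held neither a GC box nor an E-box. These are matches of letters and say nothing of binding in these cells.

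Cdkn2d encodes p19 of the INK4 family, an inhibitor of CDK4 and CDK6 known for keeping differentiated cells out of cycle. Its log2 intensity was 10.32 (A4) and 10.98 (D11) in EPZ4777 and 9.71 and 10.03 in DMSO in shLUC cells, and 10.34 (A1) and 10.81 (A5) in EPZ4777 and 9.83 and 9.46 in DMSO in cells labelled shSirt1. The 4 EPZ4777 arrays lay above the 4 DMSO arrays, with D11 and A5 highest. Neither arm passed alone, at 0.78 ± 0.27 (limma adjusted p = 0.150) and 0.93 ± 0.27 (0.199), whereas the mean of both arms did, at 0.85 ± 0.19 (limma adjusted p = 0.0377). That call held without the EPZ4777 array of A4 or of A1 and was lost without any 1 of the other 6 arrays (limma adjusted p from 0.0584 to 0.138).

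Cdkn2a encodes p16INK4a and, from another reading frame, ARF, which stabilizes p53. The single probe set does not tell these transcripts apart here. Its log2 intensity was 6.79 (A4) and 7.05 (D11) in EPZ4777 and 5.83 and 6.23 in DMSO in shLUC cells. The cells labelled shSirt1 were at 5.41 (A1) and 6.98 (A5) in EPZ4777, against 4.95 and 5.38 in DMSO. Each code was higher in EPZ4777, by 0.96 in A4, 0.82 in D11, 0.46 in A1 and 1.599 in A5, but the groups overlapped across codes because A1 was low under both agents. The differences of 0.89 ± 0.46 and 1.03 ± 0.46 did not pass (limma adjusted p = 0.333 and 0.339), nor did their mean of 0.96 ± 0.33 (0.109), which passed in the blocked fit (adjusted p = 0.0321).

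Cdkn2b, the neighbour of Cdkn2a, encodes p15INK4b, an inhibitor induced by TGF-beta and often silenced in human myeloid leukemia. Its log2 intensity ran from 4.15 to 4.24 on the 4 EPZ4777 arrays and from 3.93 to 4.38 on the 4 DMSO arrays. These levels sat just above the lower quartile of the arrays, a range where RMA understates changes. The difference was -0.02 ± 0.16 in shLUC cells (95% interval -0.39 to 0.35) and 0.14 ± 0.16 in cells labelled shSirt1 (-0.23 to 0.51), and neither passed.

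The CIP/KIP members Cdkn1b and Cdkn1c were both higher on the EPZ4777 arrays, but not past the threshold in the fit without a block. The family did not move as a whole. Cdkn1a, a CIP/KIP gene listed among the partners below, was lower in EPZ4777 within every code. Its differences were -0.73 in A4, -0.95 in D11, -0.58 in A1 and -0.21 in A5. Cdkn1b encodes p27, which inhibits cyclin E and CDK2 and accumulates in resting cells. Log2 intensity was 8.55 (A4) and 9.10 (D11) in EPZ4777 and 7.95 and 8.18 in DMSO in shLUC cells, and 8.46 (A1) and 8.61 (A5) in EPZ4777 and 8.40 and 7.94 in DMSO in cells labelled shSirt1. The lowest EPZ4777 value lay only just above the highest DMSO value, both of A1. The differences were 0.76 ± 0.23 (limma adjusted p = 0.105) and 0.36 ± 0.23 (0.474), with a mean of 0.56 ± 0.16 (0.0684; 0.0426 in the blocked fit). A second, dimmer probe set of Cdkn1b gave a mean of only 0.11. It was slightly lower in EPZ4777 in A4 (6.16 against 6.18) and A1 (6.30 against 6.37), and its EPZ4777 and DMSO arrays overlapped. The size, the sign within a code and the separation of the arrays thus depend on the probe set.

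Cdkn1c encodes p57, an imprinted inhibitor linked to the quiescence of blood stem cells in mice. The log2 values were 6.55 (A4) and 6.88 (D11) in EPZ4777 and 5.98 and 6.32 in DMSO in shLUC cells, and 6.61 (A1) and 6.82 (A5) in EPZ4777 and 6.45 and 6.02 in DMSO in cells labelled shSirt1. Again no DMSO array reached the lowest EPZ4777 array, with A1 showing the smallest step. The differences were 0.57 ± 0.20 (limma adjusted p = 0.161) and 0.48 ± 0.20 (0.316), and their mean was 0.52 ± 0.14 (0.0618; 0.0444 in the blocked fit).

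Cdk4, the kinase that INK4 proteins bind, was lower on every EPZ4777 array than on any DMSO array. Its log2 intensity was 10.54 (A4) and 10.11 (D11) in EPZ4777 and 11.16 and 11.04 in DMSO in shLUC cells, and 10.96 (A1) and 10.69 (A5) in EPZ4777 and 11.19 and 11.23 in DMSO in cells labelled shSirt1. The DMSO arrays lay within a narrow band, and the EPZ4777 arrays spread below it. In shLUC cells the level was 58.3% of the DMSO mean, at -0.78 ± 0.17, which just missed the threshold (limma adjusted p = 0.0526) and passed in the blocked fit (0.0387). In cells labelled shSirt1 the difference was -0.39 ± 0.17 (limma adjusted p = 0.324). The mean of both arms passed, at -0.58 ± 0.12 (limma adjusted p = 0.0301), and held without the EPZ4777 array of A4 or of A1 but not without any 1 of the other 6 arrays (0.0663 to 0.123). The 3 probe sets of Cdk4 gave means from -0.70 to -0.56, and each pair of them had a Pearson correlation between 0.986 and 0.997 over the 8 arrays.

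The Cdk4 window is shown for its run of E-boxes, CACGTG, the letters bound by MYC with MAX, which are their own reverse complement and stand in capitals. It lies on the plus strand at chr10:127063285-127063534 of GRCm38.p6, with the sequence from RefSeq.
Cdk4: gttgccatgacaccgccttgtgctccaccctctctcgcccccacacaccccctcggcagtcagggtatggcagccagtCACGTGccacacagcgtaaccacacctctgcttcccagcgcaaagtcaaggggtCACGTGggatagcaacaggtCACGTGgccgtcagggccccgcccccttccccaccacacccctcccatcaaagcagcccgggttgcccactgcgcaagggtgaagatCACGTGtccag
It held 4 E-boxes, whereas 6.02% of the 32851 windows held any and 0.0213%, or 7 windows, held 4 or more. No other window held one among the 10 listed starts, which cover 7 of the 10 genes. The window was picked for this run, so its rarity is no test, and matching letters say nothing of binding in these cells. Whether MYC acts on Cdk4 here was not tested. Myc was not called in either arm, at 0.43 ± 0.17 for shLUC cells (limma adjusted p = 0.186) and -0.03 ± 0.17 for cells labelled shSirt1 (0.956).

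The D-type cyclins, which activate CDK4 and CDK6, did not move as a group. Ccnd3, a cyclin D needed for granulocyte expansion in mice, was at 10.51 (A4) and 11.06 (D11) in EPZ4777 and at 9.98 and 10.07 in DMSO in shLUC cells, and at 10.55 (A1) and 10.74 (A5) in EPZ4777 and 10.13 and 9.75 in DMSO in cells labelled shSirt1. Every EPZ4777 array exceeded every DMSO array. The differences were 0.76 ± 0.21 (limma adjusted p = 0.0879) and 0.71 ± 0.21 (0.206), and the mean of both arms passed at 0.73 ± 0.15 (limma adjusted p = 0.0296). That call held without the EPZ4777 array of A4 or of A1 or the DMSO array of A1, and was lost without any 1 of the other 5 arrays (limma adjusted p from 0.0697 to 0.118). Its 3 probe sets were all higher in EPZ4777, by 0.48 to 0.73.

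Ccnd2, the cyclin D that growth factor signals induce in many blood cells, differed more between codes than between agents. On the log2 scale it was at 9.64 (A4) and 9.17 (D11) in EPZ4777 and 10.16 and 10.13 in DMSO in shLUC cells. The cells labelled shSirt1 stood at 10.98 (A1) and 8.65 (A5) in EPZ4777, against 11.42 and 9.64 in DMSO. A1, also the code with the lowest Sirt1, was highest under both agents, and A5 was lowest under both. Within every code the EPZ4777 array was lower, by -0.52 in A4, -0.95 in D11, -0.44 in A1 and -0.995 in A5. The unblocked differences of -0.74 ± 0.80 and -0.72 ± 0.80 did not pass (limma adjusted p = 0.681 and 0.693), nor did their mean of -0.73 ± 0.56 (0.472). In the blocked fit, which removes the level of each code, the mean did pass (adjusted p = 0.0259). For cells labelled shSirt1 the difference turned to 0.17 without the A1 DMSO array and to 0.45 without the A5 EPZ4777 array. It was -1.88 without the A1 EPZ4777 array and -1.61 without the A5 DMSO array.

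**Figure D2:**
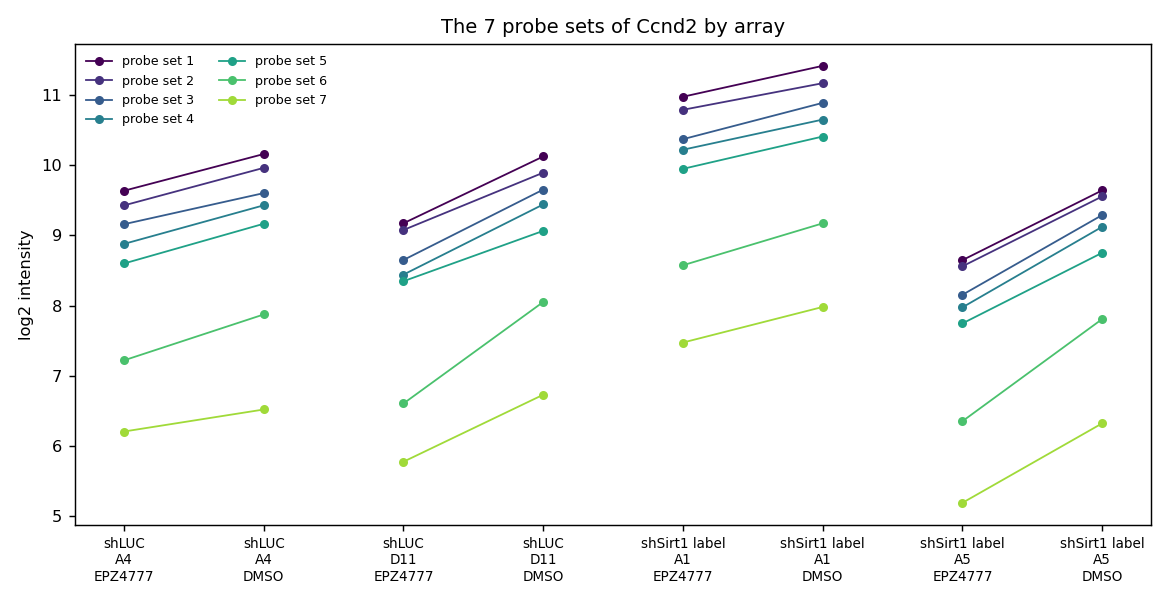
Log2 intensity of the 7 probe sets of Ccnd2 on each array, with the EPZ4777 array of a code left of its DMSO array. All 7 probe sets are lower in EPZ4777 in every code and highest in A1, with mean differences from -1.04 to -0.68.

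The spread of Ccnd2 between codes was shared by its 7 probe sets, whose pairwise Pearson correlations over the 8 arrays ran from 0.968 to 0.999. Ccnd1, a cyclin D that is scarce in most blood cells, ran from 5.34 to 5.67 in EPZ4777 and from 5.29 to 5.47 in DMSO. Its differences were -0.04 ± 0.14 (95% interval -0.37 to 0.28) and 0.15 ± 0.14 (-0.18 to 0.48). Its 3 probe sets correlated with each other at -0.29 to 0.55 over the 8 arrays, so they did not track one shared pattern.

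**Figure D3:**
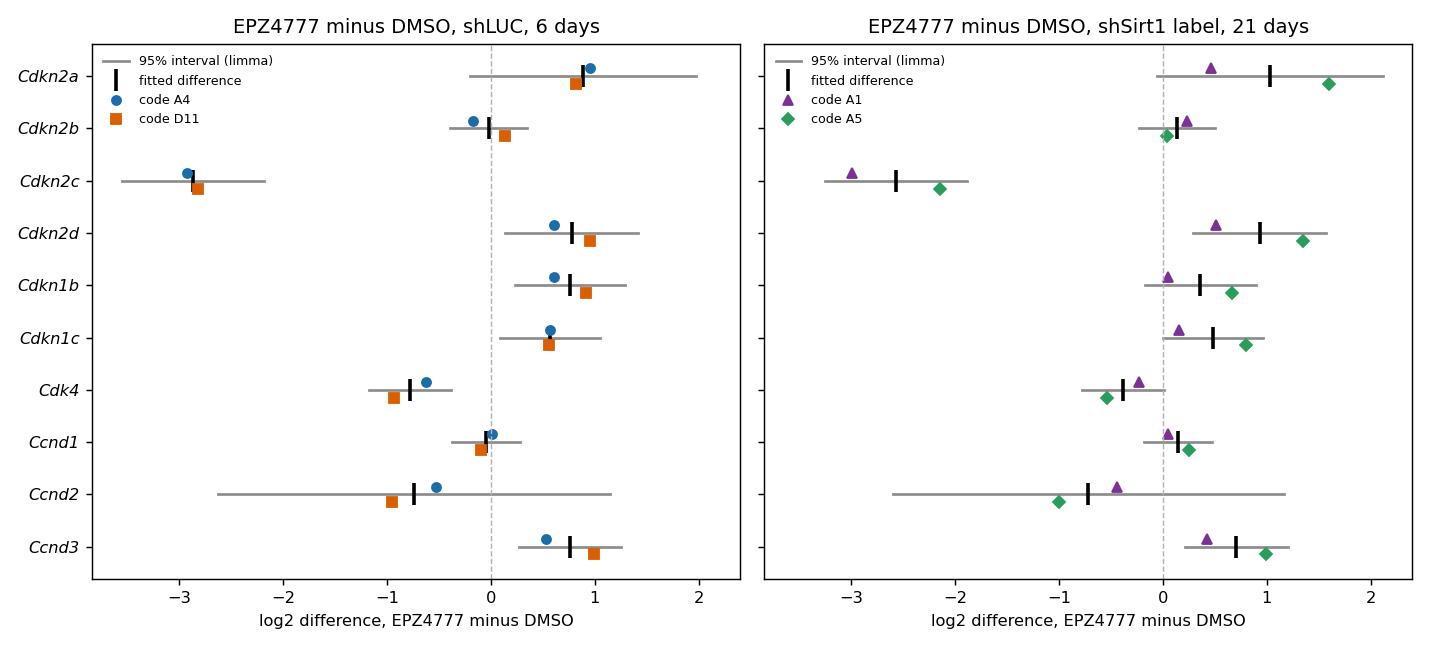
Log2 difference, EPZ4777 minus DMSO, of the 10 genes, for shLUC cells at 6 days (left) and cells labelled shSirt1 at 21 days (right), with limma's fitted value, its 95% interval and the difference of each code. Cdkn2c stands alone far left of 0 in both panels, and Ccnd2 has the widest intervals, with the differences of its codes well inside them.

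Counted without a fitted model, 6 of the 10 genes had EPZ4777 arrays that did not overlap the DMSO arrays, against 18.0% of all genes. Cdkn2d, Cdkn1b, Cdkn1c and Ccnd3 lay above, where 8.05% of all genes did, and Cdkn2c and Cdk4 below, where 9.94% did. The sign of EPZ4777 minus DMSO was the same in all 4 codes for 8 of 10 genes, against 38.4% of all genes, with Cdkn2a added to the higher and Ccnd2 to the lower ones. For Cdkn1b both counts rest on its brightest probe set, since the second one overlapped and changed sign between codes. In the blocked fit of the mean of both arms the same 8 genes passed, 5 higher and 3 lower, against 16.1% of all genes. In the arms alone the blocked fit called 2 of 10 in shLUC cells (Cdkn2c and Cdk4, 7.23% of all genes) and 1 of 10 in cells labelled shSirt1 (Cdkn2c, 2.22%). Since the 10 genes were chosen with earlier results of these data known, none of these shares is a test of the group.

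The effects of EPZ4777 in both arms were also compared with each other. For the difference of effects, labelled shSirt1 at 21 days minus shLUC at 6 days, 0 of 10 members and 0% of all genes passed in limma. At an unadjusted p under 0.05 there were 0 members and 1221 genes, or 6.71%. With the block 0 members and 3 genes, or 0.0165%, passed. Cdkn2c differed by 0.30 ± 0.41 between arms, with a 95% interval from -0.67 to 1.27. Cdk4, with the lowest adjusted p of the 10, differed by 0.39 ± 0.24 (-0.17 to 0.95, limma adjusted p = 0.810). With intervals this wide the test does not show that the arms responded alike.

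Between labels, 0 of 10 members passed in DMSO, as did 0% of all genes, with 0 members and 985 genes, or 5.41%, at an unadjusted p under 0.05. The largest difference, labelled shSirt1 minus shLUC, was that of Cdkn2a, at -0.87 ± 0.46 (limma adjusted p = 0.890). In EPZ4777, 0 of 10 members passed, against 0.308% of all genes. Cdk4 was the only member with an unadjusted p under 0.05 there, where 13.3% of all genes had one, at 0.50 ± 0.17 (unadjusted p = 0.0200, limma adjusted p = 0.266).

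The codes of an arm differed in how far values moved, over all genes as well as the members. In shLUC cells D11 showed the larger absolute difference in 60.4% of all genes and in 6 of 10 members, and in cells labelled shSirt1 A5 exceeded A1 in 62.7% of all genes and in 8 of 10 members, so these counts lie near the background. The widest gap between the codes of an arm was that of Cdkn2a in cells labelled shSirt1, with a difference of 0.46 in A1 and 1.599 in A5. Markers of neutrophil maturation differed along with the agent: the summed intensity of the 17 measured of 19 markers was 93608 (A4) and 148720 (D11) in EPZ4777 and 38972 and 49934 in DMSO in shLUC cells, and 84897 (A1) and 146260 (A5) in EPZ4777 and 16660 and 39792 in DMSO in cells labelled shSirt1. Of these 17 markers 3 passed in shLUC cells, 0 in cells labelled shSirt1 and 11 in the mean of both arms, all higher. Over all genes 1.62% passed higher in shLUC cells and 4.88% in the mean of both arms. In the blocked fit 7 of the 17 passed in shLUC cells, 8 in cells labelled shSirt1 and 16 in the mean, all higher. Over all genes that fit called 7.23%, 2.22% and 16.1% in that order, in either direction. The median difference of the 17 markers was 1.21 in A4, 2.74 in D11, 2.42 in A1 and 2.78 in A5. Among 15 measured of 16 monocyte and macrophage markers, 6 passed higher and 2 lower in shLUC cells, against 1.62% and 2.36% of all genes. In cells labelled shSirt1 0 of these markers passed higher and 2 lower, where 0.396% of all genes passed in either direction. The part of such maturing cells in the values of the 10 genes was not tested.

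Around the 10 genes, 46 of 48 listed partners of G1/S control were measured. In shLUC cells 2 rose and 3 fell, against 1.62% and 2.36% of all genes, and 41 did not pass, with a median difference of 0.08 against -0.0025 over all genes. In cells labelled shSirt1 0 of 46 passed in limma, and the median was -0.03 against 0.01 over all genes. The mean of both arms gave 3 higher and 5 lower, against 4.88% and 6.00% of all genes.

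Among 11 genes of kinases, cyclins and their regulators, the inhibitor gene Cdkn1a included, 1 passed in shLUC cells, against 3.98% of all genes. Cdk6, the second kinase of the D-type cyclins, was at 11.68 (A4) and 11.48 (D11) in EPZ4777, against 12.26 and 12.21 in DMSO, and fell there (-0.66 ± 0.13, limma adjusted p = 0.0473, but 0.0515 in the blocked fit). In cells labelled shSirt1 it was -0.52 ± 0.13 (0.166), and in the mean of both arms Cdk6 fell (-0.59 ± 0.095, 0.0185), as did Mnat1, a subunit of the CDK-activating kinase (-0.41 ± 0.073, 0.0235). Cdk2 was 0.41 ± 0.15 and 0.27 ± 0.15 in the arms, Ccne1, a cyclin E, -0.43 ± 0.12 and 0.07 ± 0.12, and Ccne2 0.09 ± 0.33 and 0.23 ± 0.33, none past the threshold. Cdkn1a, the p53 target p21 and another CIP/KIP gene, was -0.84 ± 0.26 (limma adjusted p = 0.118, 0.0358 in the blocked fit) and -0.40 ± 0.26 (0.495), opposite in sign to Cdkn1b and Cdkn1c.

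Among 13 pocket protein and E2F genes none passed in either arm alone. In the mean of both arms Rb1, the retinoblastoma gene, rose (0.64 ± 0.13, limma adjusted p = 0.0301), as did the repressor E2f8 (0.61 ± 0.14, 0.0405), and the repressor E2f6 fell (-0.53 ± 0.11, 0.0303). E2f1, an activator, was 0.14 ± 0.11 and -0.11 ± 0.11 in the arms. Of the 10 genes of cyclin and CIP/KIP turnover, 0 passed in either arm or in the mean of both arms without a block, and Fbxo4, for a ubiquitin ligase subunit, passed in the blocked fit of that mean (adjusted p = 0.042).

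Of 12 measured regulators of INK4, ARF and cyclin D genes, 4 passed in shLUC cells, against 3.98% of all genes. Bmi1, the Polycomb repressor of Cdkn2a, fell (-0.86 ± 0.14, limma adjusted p = 0.0326) and was -0.03 ± 0.14 in cells labelled shSirt1. Gfi1, a repressor needed for neutrophil development in mice, rose (1.13 ± 0.12, 0.0244) and was -0.16 ± 0.12 in cells labelled shSirt1. Foxo1, which activates Cdkn1b in other settings, rose (0.63 ± 0.13, 0.0478) and was -0.25 ± 0.13. The differences between arms did not pass for these genes, with limma adjusted p of 0.572 for Bmi1, 0.319 for Gfi1 and 0.522 for Foxo1. Meis1, a homeobox target of MLL fusions, fell in shLUC cells (-3.96 ± 0.44, 0.0244) and was -2.68 ± 0.44 in cells labelled shSirt1 (0.0694, 0.0146 in the blocked fit). Between labels in EPZ4777, Gfi1 was lower in cells labelled shSirt1 (-1.30 ± 0.12, limma adjusted p = 0.0193).

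**Figure D4:**
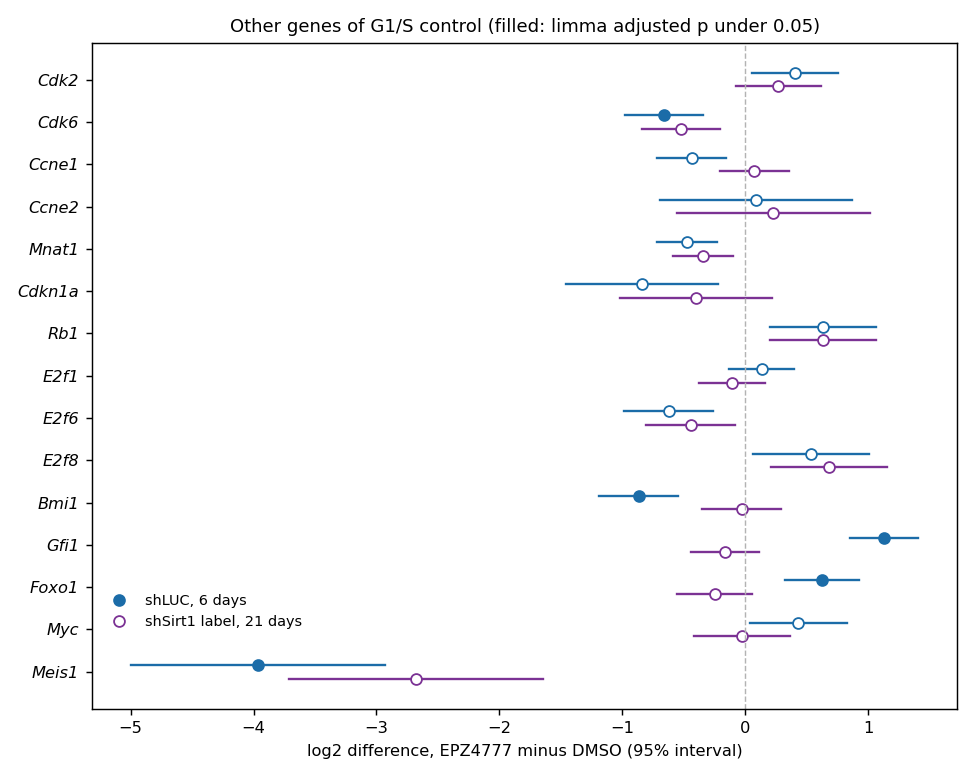
Log2 difference, EPZ4777 minus DMSO, with its 95% interval for 15 partners of G1/S control, in shLUC cells (6 days, blue, upper of each pair) and in cells labelled shSirt1 (21 days, purple), with filled points past the threshold. Cdk6, Bmi1, Gfi1, Foxo1 and Meis1 are filled for shLUC cells, and no point is filled for cells labelled shSirt1.

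Genes of DNA replication lie downstream of these kinases and cyclins. Of 24 measured of 25 such genes, 0 rose and 1 fell in shLUC cells, against 1.62% and 2.36% of all genes. The gene that fell in shLUC cells was Cdc6, a loader of replication helicases (-0.60 ± 0.098, limma adjusted p = 0.0347). The median of the 24 was -0.23 there, with 22 below 0, against -0.0025 over all genes. In cells labelled shSirt1 the median was -0.02, with 14 below 0, against 0.01 over all genes, and 0 passed. In the mean of both arms Cdc6 and Gins1, a replication fork subunit, fell, where 6.00% of all genes did. Of 15 measured of 16 mitosis genes 0 passed in either arm, with medians of 0.07 and 0.13. In the mean of both arms 1 of them rose, against 4.88% of all genes. It was the mitotic kinase gene Plk1 (0.37 ± 0.087, limma adjusted p = 0.0435).

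The pattern of Cdkn2c was then set against 2100 other genes with a mean log2 intensity of at least 6 and a range of at least 1. Over the 8 arrays the highest Pearson correlations were those of Rabgap1l, Cisd1 and Faf1, at 0.97 each, and of Ipo4 and Psmb10, at 0.95 each. The lowest were those of Olfm4 at -0.97, Ankrd63 at -0.96 and Slco4a1 at -0.95. The arrays share the split between EPZ4777 and DMSO, so these values describe how closely a gene follows that split, and they carry no test.

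Faf1, a ubiquitin-binding adaptor gene, is also the nearest listed protein-coding neighbour of Cdkn2c on one side in RefSeq. That place was examined after the values of Faf1 were seen. Faf1 was at 9.85 (A4) and 9.98 (D11) in EPZ4777 and 10.89 and 10.93 in DMSO in shLUC cells. In cells labelled shSirt1 it was at 10.20 (A1) and 10.16 (A5) in EPZ4777 and 10.82 and 10.63 in DMSO. The EPZ4777 arrays lay below the DMSO arrays, by less than for Cdkn2c. Faf1 fell in shLUC cells (-0.99 ± 0.11, limma adjusted p = 0.0244) and was -0.55 ± 0.11 in cells labelled shSirt1 (0.107). A second Faf1 probe set gave -1.26 and -0.63. On the other side, 4930522H14Rik was dim and Rnf11, a ubiquitin ligase gene, was 0.11 ± 0.15 in the mean of both arms, and neither passed, nor did Dmrta2 beyond Faf1.

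Beside Cdkn2a and Cdkn2b lies Mtap, an enzyme gene of methionine salvage that is often deleted with them in human tumours. It was at 8.64 (A4) and 8.46 (D11) in EPZ4777 and 9.99 and 9.89 in DMSO in shLUC cells, and at 9.10 (A1) and 8.94 (A5) in EPZ4777 and 9.68 and 10.05 in DMSO in cells labelled shSirt1. Mtap fell in shLUC cells (-1.39 ± 0.15, limma adjusted p = 0.0244) and was -0.84 ± 0.15 in cells labelled shSirt1 (0.0822), the opposite sign to Cdkn2a in every code. The next listed protein-coding genes on the far side, Dmrta1 and Zfp352, did not pass.

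**Figure D5:**
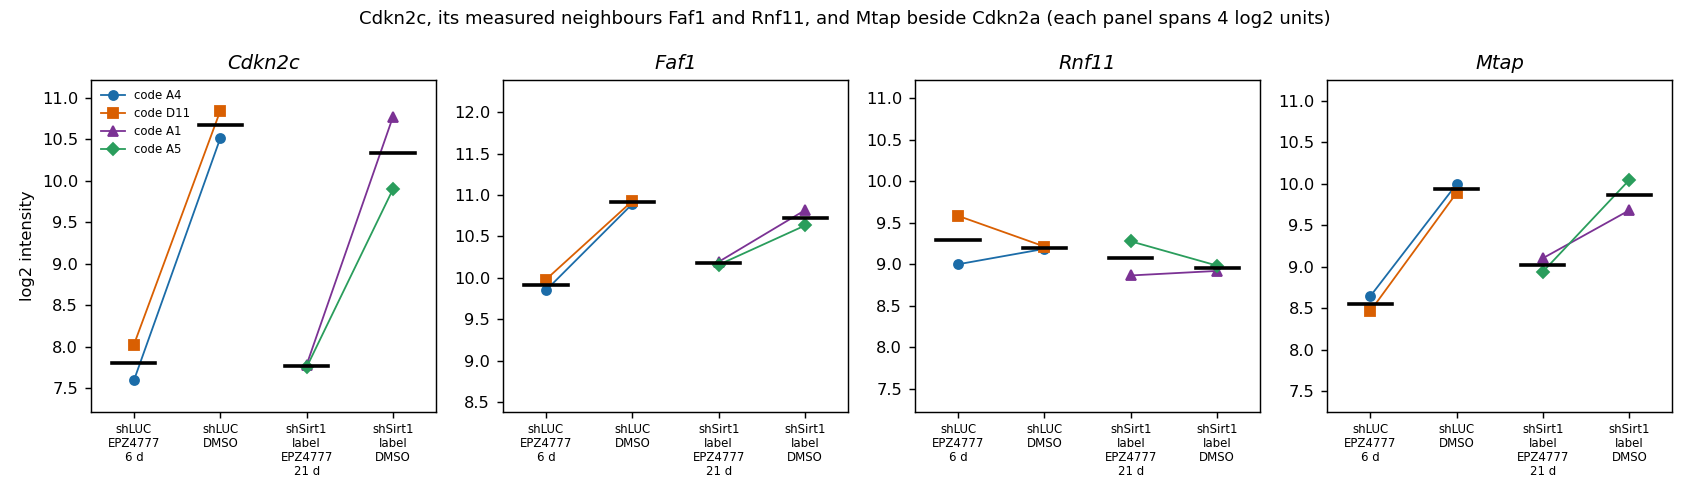
Log2 intensity of Cdkn2c, of its neighbours Faf1 and Rnf11 and of Mtap beside Cdkn2a on each array, with EPZ4777 left of DMSO, a line joining the arrays of a code and a black bar at each group mean. Cdkn2c, Faf1 and Mtap are lower on all EPZ4777 arrays than on all DMSO arrays, and Rnf11 overlaps.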

How the data were processed

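Total RNA of 8 samples was hybridised to 8 Affymetrix arrays, and samples were grouped by the hairpin, agent and time in the labels. The deposited intensity values come from the authors' RMA, which the submitters' processing notes name without a version, and no source used here gives the chip definition. The intensities were taken as linear because they reach 24500. Their log2 was taken with no further normalization or filter. Of 45101 probe sets, 64 controls were left out, 34945 had 1 gene symbol in the platform annotation, 932 several, and 9160 were unlisted and are unnamed here. The brightest probe set with 1 symbol stood for each of 18193 genes. Detection calls were not used here.

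Genes were tested with lmFit and eBayes of limma 3.58.1 in R 4.3.3 (with data.table version 1.17.8), with 4 group means over all 8 arrays, 4 residual degrees of freedom and two-sided Benjamini-Hochberg adjusted p-values. The smallest p of an exact test of 2 against 2 arrays is 0.333. EPZ4777 was set against DMSO in each arm, and the mean and the difference of both effects and the labels within each agent were tested. The procedure was tested on simulated data with independent noise and no code effect. That test lends no support to single calls in these data. The blocked fit took the title code as a fixed term and had 2 residual degrees of freedom. Deviations of same-code arrays from their group means correlated at 0.293 for shLUC and 0.378 for labelled shSirt1 over genes, unrelated codes at 0.040 in DMSO and 0.401 in EPZ4777, so the pairing rests on the titles.

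Named are the 10 members, Sirt1 and Dot1l, passing G1/S partners plus Cdk2, Cdk6, Ccne1, Ccne2, Cdkn1a, Rb1, E2f1 and Myc, up to 3 passing genes of the S phase and mitosis lists, and the 5 genes most like and 3 least like Cdkn2c. The members and lists were chosen with earlier results of these data known. Neighbouring genes, taken among the protein-coding genes of RefSeq, and the named stromal genes were chosen after values were seen. Dot1l, the target of the drug, differed by -0.060 ± 0.12 (shLUC cells) and -0.10 ± 0.12 (cells labelled shSirt1). Marker lists of stem and progenitor, megakaryocyte, mast, erythroid, lymphoid and stromal cells were also read.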

Additional observations from a re-analysis of the deposited data

How the results depend on the processing

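The alternatives were dim genes dropped, probe sets averaged or fitted singly, quantile normalization, median centring, a trended or robust variance, the code as a replicate block, only the arrays compared, other thresholds, and 1 array left out at a time. The block could not be fitted to the comparisons between labels, since each code lies in 1 label. The count of members passing for EPZ4777 in shLUC cells was 1 and became 2, by the addition of Cdk4, with the mean of probe sets (limma adjusted p of Cdk4 0.0467), dim genes dropped (0.0342), median centring (0.0456), a trended variance (0.0429), a robust variance (0.0481) and the replicate block (0.0387). It was 3 at an adjusted p under 0.10, where Ccnd3 joined, and 0 to 3 with 1 array left out. In cells labelled shSirt1 the count of 1 became 0 with only the arrays compared, where Cdkn2c was -2.57 with a limma adjusted p of 0.150, and was 0 to 1 with 1 array left out. In the mean of both arms the count of 4 became 8 with the replicate block, by the addition of Cdkn2a, Cdkn1b, Cdkn1c and Ccnd2, and 1 with a difference of at least 1 log2, and was 0 to 5 with 1 array left out. The block changed the call of no other member, and Cdkn1b and Cdkn1c also passed in the mean with dim genes dropped or after quantile normalization. For the difference of effects and both label comparisons it was 0 throughout. Counts over all genes, 724 in shLUC cells, 72 in cells labelled shSirt1, 1979 in the mean, 0 for the difference, 56 between labels in EPZ4777 and 0 between labels in DMSO, ran from 234 to 1958, 0 to 404, 344 to 3399, 0 to 3, 14 to 245 and 0 to 0 in that order under the alternatives other than leaving out 1 array. With 1 array left out they ran from 0 to 1031, 0 to 205, 2 to 2588, 0 to 89, 0 to 73 and 0 to 155.

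Apart from fits that left out an array, signs turned in 3 cases, each near 0 and none past the threshold: Ccnd2 in the difference of effects was -0.052 with the mean of probe sets (0.020 with the brightest probe set), and between labels in EPZ4777 Ccnd1 was -0.012 with the mean of probe sets and Cdkn1c -0.0025 after quantile normalization. With 1 array left out, Cdkn2c stayed between -3.08 and -2.65 in shLUC cells and between -3.01 and -2.13 in cells labelled shSirt1. In the mean of both arms it stayed between -2.94 and -2.50 (limma adjusted p 0.0009 to 0.0560), missing the threshold without the A4 or D11 DMSO array. Other signs turned in such fits, in each case for values that had not passed. For EPZ4777 in shLUC cells Ccnd1 ran from -0.12 to 0.027 and Cdkn2b from -0.20 to 0.16. For EPZ4777 in cells labelled shSirt1 Ccnd1 ran from -0.018 to 0.31, Ccnd2 from -1.88 to 0.45 and Cdkn2b from -0.001 to 0.27. In the mean of both arms Ccnd1 ran from -0.031 to 0.14 and Cdkn2b from -0.033 to 0.15. In the difference of effects Ccnd2 ran from -1.15 to 1.19, Ccnd3 from -0.33 to 0.22, Cdkn1c from -0.30 to 0.13, Cdkn2a from -0.64 to 0.93, Cdkn2b from -0.028 to 0.34, Cdkn2c from -0.14 to 0.74 and Cdkn2d from -0.18 to 0.49. Between labels in DMSO Ccnd2 ran from -0.50 to 1.28, Ccnd3 from -0.27 to 0.11, Cdkn1b from -0.13 to 0.34, Cdkn1c from -0.13 to 0.30, Cdkn2b from -0.31 to 0.056 and Cdkn2c from -0.78 to 0.096. Between labels in EPZ4777 Ccnd1 ran from -0.074 to 0.26, Ccnd2 from -0.76 to 1.57, Ccnd3 from -0.41 to 0.14, Cdkn1c from -0.17 to 0.17, Cdkn2a from -1.51 to 0.057, Cdkn2b from -0.011 to 0.068, Cdkn2c from -0.26 to 0.17 and Cdkn2d from -0.41 to 0.26. The cause of these turns was not tested. With 2 arrays per group, the number of arrays limits the precision, and the signal of Cdkn2b lies near the dim end, where RMA understates changes.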
